A study of Homo sapiens with 12 samples.

Results

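Polycomb group proteins keep genes silent through chromatin, and 9 genes of the Polycomb complexes were followed here through relapse of a leukemia cell line after chemotherapy. The members were chosen by name, as EZH1, EZH2, EED, SUZ12, CBX2, CBX7, CBX8, BMI1 and RING1 in the gene column of the count table, and all 9 were found among 26481 genes and passed the filter on low counts that left 14164 genes for testing. The RNA came from HEL, an established human acute myeloid leukemia (AML) cell line of erythroid and megakaryocytic character, in which single cells had been marked with DNA barcodes. The NT group (n = 2) received DMSO alone, the Doxo group (n = 3) the anthracycline doxorubicin at 1.8 µM, the Doxo+Cyta group (n = 3) doxorubicin with 6 µM cytarabine, a nucleoside that blocks DNA synthesis, and the Doxo+Cyta+DAC group (n = 4) both drugs with 0.1 µM decitabine (DAC), a nucleoside that traps DNA methyltransferases. Drugs were left on for 72 to 74 h, after which live cells were enriched and grown for about 30 days until their number was back at that of the start. All samples therefore came from 1 line, and the treated samples were regrown populations rather than cells under drug. In the drugs given, Doxo+Cyta+DAC differed from NT by all 3 drugs, from Doxo by 2 and from Doxo+Cyta by decitabine alone. The paper reports that other barcoded clones regrew with decitabine than after chemotherapy alone. The part of these clones in the results for the members was not tested.

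Polycomb repressive complex 2 (PRC2) methylates lysine 27 of histone H3, with EZH1 or EZH2 as alternative catalytic subunits held by SUZ12 and EED. Polycomb repressive complex 1 (PRC1) ubiquitinates histone H2A through RING1 or RNF2 paired with a PCGF protein such as BMI1, and its canonical form holds 1 chromobox protein, such as CBX2, CBX6, CBX7 or CBX8, that binds the methylated histone. In blood cells EZH2 is abundant in dividing progenitors while EZH1 persists in resting ones, and CBX7 and CBX8 have been tied to self-renewal and to differentiation, respectively. The genes of a pair thus code for alternative parts, which is why EZH1 was set against EZH2 and the CBX genes against each other.

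Total counts lay between 12763582 and 19106235 fragments per library, so that 3 counts, taken as the lowest level a library could show, equalled 0.157 to 0.235 counts per 1000000 (CPM), for counting error only. Levels are CPM adjusted by the TMM method, and a gene was called when the adjusted p of edgeR's quasi-likelihood test over all tested genes was under 0.05. All 8 erythroid and megakaryocytic markers were present, and their sum per library was lower with decitabine (6050 to 8238 CPM) than after Doxo (8956 to 9693 CPM) or Doxo+Cyta (9457 to 10402 CPM), with NT at 7742 to 8979 CPM. Lymphoid markers, nearly all CD79A, summed to 0.963 to 1.84 CPM with decitabine and 2.39 to 6.14 CPM elsewhere, and epithelial markers to 0.306 to 1.63 CPM. The part of these marker differences in the results for the members was not tested. Granulocytic and monocytic markers summed to 26.6 to 45.1 CPM, nearly all of it LYZ, and the defining MPO and ELANE were at or near 0. Library 4 of Doxo and library 20 of Doxo+Cyta stood apart from the others of their groups. Their chi-square per degree of freedom against the other pair was 27.3 to 29.7 and 46.7 to 48.5, when the remaining pairs of these groups gave 3.1 and 7.33. Results that moved without them are given with and without both. The labels speak of biological replicates without naming the culture behind each library.

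The promoters of the 3 genes on which the results turn most, EZH1, EZH2 and CBX7, are shown because decitabine acts on methylation of cytosines in CpG pairs. They are from RefSeq on GRCh38.p14, run from 250 bases before to 50 bases after the transcription start, are written 5′ to 3′ on the coding strand, which is the minus strand for all 3, and have each CG pair in capitals. For CBX7 this RefSeq start lies upstream of the gene model used for counting, which begins at 39152533, so the window holds no counted exon base.
EZH1, chr17:42744991-42745290: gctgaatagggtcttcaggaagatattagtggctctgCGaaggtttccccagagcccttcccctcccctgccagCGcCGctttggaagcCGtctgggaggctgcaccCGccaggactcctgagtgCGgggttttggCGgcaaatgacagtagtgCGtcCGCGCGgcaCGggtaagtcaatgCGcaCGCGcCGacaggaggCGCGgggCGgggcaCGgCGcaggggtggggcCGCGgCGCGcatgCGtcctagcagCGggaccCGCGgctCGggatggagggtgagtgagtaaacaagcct
EZH2, chr7:148884242-148884541: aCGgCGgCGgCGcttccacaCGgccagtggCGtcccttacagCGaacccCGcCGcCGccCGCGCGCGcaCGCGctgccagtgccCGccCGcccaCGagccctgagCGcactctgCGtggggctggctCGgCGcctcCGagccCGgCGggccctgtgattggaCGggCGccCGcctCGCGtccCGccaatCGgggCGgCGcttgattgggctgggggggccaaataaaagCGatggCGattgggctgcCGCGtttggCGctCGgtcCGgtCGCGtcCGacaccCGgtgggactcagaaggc
CBX7, chr22:39152631-39152930: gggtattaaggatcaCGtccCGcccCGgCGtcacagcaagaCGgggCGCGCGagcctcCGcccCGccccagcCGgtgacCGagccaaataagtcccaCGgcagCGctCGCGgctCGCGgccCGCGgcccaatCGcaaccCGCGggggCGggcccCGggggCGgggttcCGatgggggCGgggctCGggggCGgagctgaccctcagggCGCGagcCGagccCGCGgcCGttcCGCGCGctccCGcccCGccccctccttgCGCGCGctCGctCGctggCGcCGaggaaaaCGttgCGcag
The EZH1 promoter held 30 CG pairs, the EZH2 promoter 46 and the CBX7 promoter 50, when the median over 35116 promoters of this length was 14. Of the other members with an entry, RING1 held 41, SUZ12 40, EED 16 and BMI1 36 and 65 in separate entries. The number of CG pairs thus did not set the 3 genes apart from the other members. The letters TTTNNCGC, one form of the motif bound by E2F factors of the cell cycle, were searched on both strands and overlap a CG pair wherever they match. They were found 1 time each in the promoters of EZH1, EZH2 and SUZ12, in none of the other member promoters matched here (a second RefSeq entry of EZH2 among them), and in 6.89% of all promoters. Of the 9 members 7 had an entry, CBX2 and CBX8 having none, and the files hold no methylation data for these windows.

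EZH1 and EZH2 moved in opposite directions in the decitabine samples. EZH1 (chr17:42700275-42745053, minus strand, GRCh38) had levels of 54.2 and 55.3 CPM for NT, 53.7, 68.4 and 66.9 CPM after Doxo, 80.9, 55.9 and 70.6 CPM after Doxo+Cyta, and 24.1, 21.3, 21.9 and 24.7 CPM after Doxo+Cyta+DAC. The 4 decitabine libraries lay below all 8 others, with no overlap, and Doxo 4 and Doxo+Cyta 20 were the lowest of their groups. The level was 2.38-fold below its NT level (log2 fold change -1.25 ± 0.15 SE, edgeR adjusted p = 2.08e-05), 2.74-fold lower than in Doxo (adjusted p = 1.38e-06) and 3.00-fold lower than in Doxo+Cyta (adjusted p = 4.6e-07). In bulk RNA, fewer cells with a transcript and less of it per cell cannot be told apart. Of all tested genes, 7.66% fell further than EZH1 in Doxo+Cyta+DAC relative to NT. All 3 comparisons share the decitabine libraries and are not independent of each other.

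EZH2 (chr7:148807372-148884349, minus strand) had levels of 57.7 and 53.9 CPM for NT, 52.1, 49.4 and 49.4 CPM after Doxo, 53.1, 51.8 and 53.9 CPM after Doxo+Cyta, and 73.3, 74.8, 69.0 and 69.0 CPM after Doxo+Cyta+DAC. Here the decitabine libraries lay above all 8 others, and the spread within each group was small. The gene was 1.28-fold higher than in NT (log2 fold change 0.36 ± 0.10 SE, edgeR adjusted p = 0.00956), 1.42-fold higher than in Doxo (adjusted p = 0.000247) and 1.35-fold higher than in Doxo+Cyta (adjusted p = 0.000786). The call against NT was lost without NT library 2 (adjusted p = 0.114) and without the filter on low counts (adjusted p = 0.0616). A rise of this size was common, since 31.7% of all tested genes rose further relative to NT.

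The ratio of EZH1 to EZH2 within a library, per exon base, removes the scaling between libraries. On the log2 scale it was -0.70 and -0.58 for NT, -0.57, -0.14 and -0.18 after Doxo, -0.0064, -0.50 and -0.23 after Doxo+Cyta, and -2.22, -2.42, -2.27 and -2.10 after Doxo+Cyta+DAC. The linear ratios were 0.614 and 0.671 in NT, 0.673 to 0.996 in the 6 chemotherapy libraries, and 0.186 to 0.234 with decitabine. Doxo 4 (0.673) and Doxo+Cyta 20 (0.706) were the lowest of the chemotherapy libraries and near NT. The mean ratio was 3.94-fold lower in the 4 decitabine libraries than in the 6 of Doxo and Doxo+Cyta together (log2 difference -1.98, two-sided exact permutation test, p = 0.00476, the smallest this design allows, adjusted p = 0.0191 over 12 ratio tests). The complete separation behind this p followed from the levels of EZH1 and EZH2 given above, so the test adds no independent support. Against the 2 NT libraries the log2 difference was -1.61, and there the smallest p that the exact test allows is 0.0667 (adjusted p = 0.107). The chemotherapy libraries had a log2 ratio 0.37 above NT, which the exact test did not separate (p = 0.0714, adjusted p = 0.107).

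Of the partners of the catalytic subunits, SUZ12 was higher with decitabine in all 3 comparisons and EED in 1. SUZ12, the scaffold of PRC2, had levels of 92.8 and 107 CPM for NT, 89.9, 103 and 110 CPM after Doxo, 95.7, 57.9 and 96.9 CPM after Doxo+Cyta, and 130.4, 141, 151 and 148 CPM after Doxo+Cyta+DAC. The decitabine libraries were above all others, and Doxo+Cyta 20 was far below every other library. SUZ12 was 1.43-fold higher than in NT (edgeR adjusted p = 0.0276), 1.41-fold higher than in Doxo (adjusted p = 0.0133) and 1.71-fold higher than in Doxo+Cyta (adjusted p = 0.000738). The call against NT was lost without NT 1 (adjusted p = 0.211), NT 2 (0.0685), Doxo+Cyta+DAC 32 (0.0563) or Doxo+Cyta+DAC 33 (0.0522). SUZ12P1, a pseudogene, is a near copy of part of SUZ12, so the split of fragments between them is uncertain.

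EED, which binds the methyl mark and stimulates the enzyme, had levels of 61.6 and 54.4 CPM for NT, 55.1, 47.7 and 53.9 CPM after Doxo, 55.2, 53.0 and 58.2 CPM after Doxo+Cyta, and 55.8, 67.7, 68.7 and 67.0 CPM after Doxo+Cyta+DAC. Of the decitabine libraries, 3 were above all others and library 30 lay within the range of the other groups. The rise was called relative to Doxo (1.24-fold, edgeR adjusted p = 0.0225), where the call was lost without Doxo 5 (adjusted p = 0.111) or Doxo+Cyta+DAC 32 (adjusted p = 0.0582). Relative to Doxo+Cyta the difference of 1.17-fold (adjusted p = 0.0857) was called without library 30 (adjusted p = 0.033), and relative to NT the difference was not called (adjusted p = 0.298).

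A list of 42 tested S-phase genes, a transcript measure rather than one of DNA synthesis itself, was also higher in the decitabine libraries. Its mean log2 CPM was 5.91 to 5.95 for NT, 5.38 to 5.84 after Doxo, 5.50 to 5.65 after Doxo+Cyta, and 6.62 to 6.70 after Doxo+Cyta+DAC. Its part in the levels of EZH2, SUZ12 and EED was not tested.

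CBX7 carried the largest change of the 9 members in all 3 comparisons with decitabine. From the same RNA data, the paper already lists CBX7 among self-renewal genes that were higher after Doxo and Doxo+Cyta than with decitabine. The gene (chr22:39130774-39152533, minus strand) codes for the CBX protein of canonical PRC1 typical of stem and progenitor cells. Its levels were 5.71 and 4.65 CPM for NT, 4.40, 3.61 and 4.61 CPM after Doxo, 6.74, 4.74 and 4.46 CPM after Doxo+Cyta, and 0.674, 0.963, 1.10 and 1.19 CPM after Doxo+Cyta+DAC, from 11 to 21 counts per library with decitabine and 62 to 111 counts elsewhere. The decitabine libraries were well below all others yet above the lowest level a library could show. CBX7 was 5.27-fold below its NT level (log2 fold change -2.40 ± 0.26 SE, edgeR adjusted p = 1.14e-05), 4.27-fold lower than in Doxo (adjusted p = 8.57e-06) and 5.40-fold lower than in Doxo+Cyta (adjusted p = 1.72e-06). In these comparisons 1.43%, 2.56% and 2.08% of all tested genes fell further with decitabine.

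CBX8 (chr17:79794377-79797116, minus strand) had levels of 6.17 and 6.73 CPM for NT, 4.75, 5.41 and 5.55 CPM after Doxo, 6.99, 8.34 and 6.29 CPM after Doxo+Cyta, and 3.86, 4.75, 2.94 and 4.04 CPM after Doxo+Cyta+DAC. The decitabine libraries were below those of NT and Doxo+Cyta, and the highest of them met the lowest of Doxo at 4.75 CPM. CBX8 was 1.66-fold below its NT level (log2 fold change -0.73 ± 0.20 SE, edgeR adjusted p = 0.00905) and 1.86-fold lower than in Doxo+Cyta (adjusted p = 0.000824), while the difference of 1.35-fold from Doxo was not called (adjusted p = 0.0589). The call against NT was lost without NT library 2 (adjusted p = 0.0767), and the difference from Doxo was called without Doxo+Cyta+DAC 31 (adjusted p = 0.0268), Doxo+Cyta 20 (0.0482) or both libraries that stood apart (0.0363), with upper-quartile scaling (0.0452) and with at least 10 counts in every sample (0.0409).

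CBX2 (chr17:79778178-79787650, plus strand), 6726 bases from CBX8, did not fall with it. It had levels of 14.3 and 14.6 CPM for NT, 13.3, 7.28 and 7.45 CPM after Doxo, 8.60, 13.9 and 13.5 CPM after Doxo+Cyta, and 20.7, 15.1, 18.1 and 13.2 CPM after Doxo+Cyta+DAC. The decitabine libraries overlapped each other group, whereas both NT libraries lay above all of Doxo and Doxo+Cyta. The 2 lowest values were those of Doxo 5 and 6. CBX2 was 1.80-fold higher than in Doxo (log2 fold change of Doxo over Doxo+Cyta+DAC -0.85 ± 0.24 SE, edgeR adjusted p = 0.00708). The differences from Doxo+Cyta (1.40-fold, adjusted p = 0.0872) and from NT (1.16-fold, adjusted p = 0.518) were not called. The former was called without Doxo 4 (adjusted p = 0.0388) or both libraries that stood apart (log2 fold change -0.60, adjusted p = 0.0153).

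**Figure D1:**
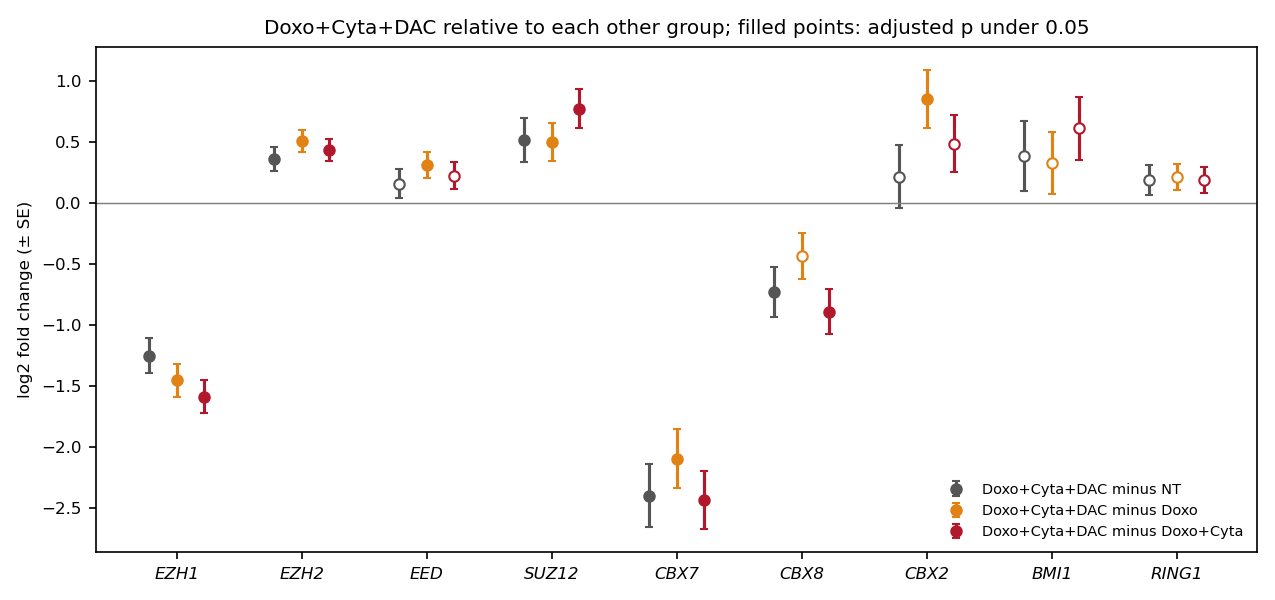
Log2 fold change of each member (vertical axis, ± SE from edgeR) in Doxo+Cyta+DAC relative to NT, Doxo and Doxo+Cyta, with values above 0 higher in Doxo+Cyta+DAC and filled points at an adjusted p under 0.05. EZH1, CBX7 and CBX8 lie below 0 and the other 6 members above it in all 3 comparisons, with 5, 6 and 5 filled points.

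The balance of the CBX genes also differed with decitabine. The log2 ratio of CBX7 to CBX2 per exon base was -0.99 and -1.31 in NT, from -1.26 to -0.015 in the 6 chemotherapy libraries and -4.54, -3.59, -3.67 and -3.10 with decitabine, with no overlap. It was 7.62-fold lower with decitabine than in Doxo and Doxo+Cyta together (log2 difference -2.93, two-sided exact permutation test, p = 0.00476, adjusted p = 0.0191). CBX7 to CBX8 was 2.98-fold lower (log2 difference -1.58, exact p = 0.00476, adjusted p = 0.0191). CBX2 to CBX8 was 2.55-fold higher (log2 difference 1.35, exact p = 0.00952, adjusted p = 0.0286). In 3 of 4 decitabine libraries CBX2 was at or above CBX8, which was so in none of the other 8. The linear ratio was 1.65, 0.977, 1.89 and 1.006 with decitabine and at most 0.865 elsewhere. Libraries 31 and 33 were thus next to equality, and which gene was higher there is not settled. Without both libraries that stood apart the log2 differences were -3.15, -1.61 and 1.54, and that of EZH1 to EZH2 was -2.11, each with an exact p of 0.0286, the smallest for 4 against 4 (adjusted p = 0.0857). Against NT, where the smallest exact p is 0.0667, the log2 differences were -2.57, -1.64 and 0.93 (adjusted p = 0.107, 0.107 and 0.178). The chemotherapy libraries differed from NT by 0.36, -0.06 and -0.42, and none of these passed the exact test (p = 0.429, 0.857 and 0.286).

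CBX6, a further chromobox gene of canonical PRC1, was 1.46-fold higher with decitabine than in NT, 1.43-fold higher than in Doxo and 1.49-fold higher than in Doxo+Cyta (edgeR adjusted p = 0.0153, 0.00793 and 0.00368). Its group means were 24.6 CPM ± 0.71 (SD, n = 2) for NT, 25.1 CPM ± 2.3 (n = 3) after Doxo, 24.0 CPM ± 0.75 (n = 3) after Doxo+Cyta, and 35.8 CPM ± 6.7 (n = 4) after Doxo+Cyta+DAC.

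RING1, a ubiquitin ligase of PRC1, and BMI1, its PCGF partner, showed no called change when all libraries were used. RING1 had levels of 41.8 and 41.04 CPM for NT, 42.6, 38.2 and 41.6 CPM after Doxo, 38.8, 47.6 and 37.8 CPM after Doxo+Cyta, and 49.2, 47.0, 48.2 and 44.2 CPM after Doxo+Cyta+DAC, the decitabine libraries being above those of NT and Doxo but not above Doxo+Cyta 20. Its differences were 1.14-fold to 1.16-fold (edgeR adjusted p = 0.22, 0.108 and 0.146 relative to NT, Doxo and Doxo+Cyta). Without Doxo+Cyta 20 it was called relative to Doxo (adjusted p = 0.0407) and Doxo+Cyta (adjusted p = 0.0163), and without both libraries as well (adjusted p = 0.0165 and 0.00624). RING1 also has copies on 5 alternate contigs of the genome, and its length was taken from the primary one. BMI1 had levels of 3.75 and 7.39 CPM for NT, 4.40, 6.63 and 6.25 CPM after Doxo, 4.33, 3.47 and 6.42 CPM after Doxo+Cyta, and 8.33, 6.81, 7.08 and 6.73 CPM after Doxo+Cyta+DAC, with the 2 NT libraries far apart. Its differences of 1.31-fold, 1.25-fold and 1.53-fold were not called (adjusted p = 0.284, 0.282 and 0.0543). The last was called by DESeq2 (adjusted p = 0.0407) and by edgeR without NT 1, NT 2, Doxo 4 or Doxo+Cyta 22 (adjusted p = 0.0342, 0.0348, 0.0453 and 0.0157), with no filter on low counts (0.0427) or with only the groups compared (0.0407). Of its 3430 exon bases, 85.8% are shared with the readthrough gene COMMD3-BMI1 and fragments there were left out by the authors' counting, so the BMI1 count covers 487 bases.

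Compared per kb by group mean, RING1, EED and SUZ12 were the 3 highest members in all groups, at 18.7 to 31.9 CPM per kb. EZH2 followed at 16.6 to 23.6. In NT the first 3 differed by less than the SD of EED or SUZ12. In Doxo+Cyta, SUZ12 (18.7 ± 5.0, SD, n = 3) was less than its SD above EZH2 (17.4). With decitabine, EED (25.6 ± 2.4, SD, n = 4) was less than its SD above EZH2 (23.6). EZH1 came next at 11.8 to 14.9 CPM per kb in NT, Doxo and Doxo+Cyta. BMI1 followed at 11.4 ± 5.3 (SD, n = 2), 11.8 ± 2.5 (n = 3) and 9.73 ± 3.1 (n = 3), which was less than its SD below EZH1 in NT and Doxo but not in Doxo+Cyta. With decitabine EZH1 stood at 4.96 ± 0.35 (SD, n = 4), below BMI1 at 14.9 ± 1.5. The BMI1 values per kb rest on its 487 unshared exon bases, so its place beside EZH1 is uncertain. The 3 CBX members were the lowest, CBX8 above CBX2 above CBX7 in the first 3 groups, and CBX2 (3.36 ± 0.66) above CBX8 (2.52 ± 0.48) above CBX7 (0.248 ± 0.057) with decitabine.

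Counted over the 9 members, 2 were higher (EZH2 and SUZ12) and 3 lower (EZH1, CBX7 and CBX8) in Doxo+Cyta+DAC than in NT, where 24.9% of all tested genes were called higher and 23.7% lower. Relative to Doxo+Cyta+DAC, 2 members were higher in Doxo (EZH1 and CBX7; 30.4% of all tested genes) and 4 lower (EZH2, EED, SUZ12 and CBX2; 29.1%). Likewise, 3 members of Doxo+Cyta were higher (EZH1, CBX7 and CBX8; 30.5%) and 2 lower (EZH2 and SUZ12; 29.8%). With so many genes called in each direction, the number of members called was not far from the background, and the members differed from one another in direction and size. The median log2 fold change of the members was 0.19, -0.31 and -0.22 in the 3 comparisons, with Doxo+Cyta+DAC first in the one with NT, beside 0.02, 0.01 and 0.00 over all tested genes.

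Relapse after chemotherapy alone left the members without a call. In Doxo relative to NT, 0 of 9 were called by edgeR or DESeq2, with 6.06% of all tested genes higher and 4.63% lower. Their median log2 fold change was -0.15, and 1 member had an unadjusted p under 0.05. That member was CBX2 (log2 fold change -0.64 ± 0.28 SE, edgeR adjusted p = 0.149). Without Doxo 4 its log2 fold change was -1.005 (adjusted p = 0.0142), which made it the 1 member called. Without both Doxo 4 and Doxo+Cyta 20, 2 members were called, EZH1 higher (log2 fold change 0.27, adjusted p = 0.0497) and CBX2 lower after Doxo (adjusted p = 0.0048).

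For Doxo+Cyta against NT, 0 of 9 were called by edgeR or DESeq2 and 0 had an unadjusted p under 0.05, beside 0.911% of all tested genes higher and 0.551% lower. The smallest adjusted p was that of EZH1 (0.25, log2 fold change 0.34 ± 0.16 SE), and without both libraries it was called (log2 fold change 0.45, edgeR adjusted p = 0.013). Between Doxo and Doxo+Cyta, 0 of 9 were called by either tool, with 2.32% of all genes being higher and 1.07% lower in the Doxo samples. CBX8 was the 1 member with an unadjusted p under 0.05 (log2 fold change -0.46, adjusted p = 0.219), and its libraries did not overlap, being higher in Doxo+Cyta.

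Other Polycomb genes gave a mixed picture. Of 46 listed, 44 were in the table and 41 were tested. In Doxo+Cyta+DAC relative to NT, 9 were higher and 9 lower, beside 24.9% and 23.7% of all tested genes. The median log2 fold change of the 41 was -0.07. Measured against the decitabine samples, 15 were higher and 13 lower in the Doxo samples (median 0.18), beside 30.4% and 29.1% of all tested genes. In the Doxo+Cyta samples 12 were higher and 15 lower (median 0.02), beside 30.5% and 29.8%. In the comparisons of chemotherapy alone 5 were higher and 0 lower in Doxo than in NT (6.06% and 4.63% of all tested genes). None was called in Doxo+Cyta relative to NT (0.911% and 0.551%) or between Doxo and Doxo+Cyta (2.32% and 1.07%).

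By complex, 3 of 10 tested accessory subunits of PRC2 were higher and 3 lower with decitabine than in NT (24.9% and 23.7% of all tested genes). PHF1, a Polycomb-like protein that helps PRC2 bind DNA, ranged from 40.1 to 49.2 CPM with decitabine, against 81.6 to 144.8 CPM elsewhere. It was 1.92-fold lower than in NT (edgeR adjusted p = 6.82e-05), 2.79-fold lower than in Doxo and 2.83-fold lower than in Doxo+Cyta. PHF1 was also 1.46-fold higher in Doxo than in NT (adjusted p = 0.0267). The 1.48-fold difference of Doxo+Cyta from NT was not called (adjusted p = 0.0605). Of 8 other canonical PRC1 genes 1 was higher (CBX6) and 3 were lower than in NT (24.9% and 23.7% of all tested genes). PCGF2, the closest paralogue of BMI1, was 1.66-fold lower than in NT (adjusted p = 0.00111), 1.66-fold lower than in Doxo and 1.90-fold lower than in Doxo+Cyta, and 65.4% of its exon bases are shared with CISD3. PHC3, a polyhomeotic subunit, was 2.27-fold lower than in Doxo (adjusted p = 0.000872) and 1.70-fold lower than in Doxo+Cyta (adjusted p = 0.0148), but the 1.54-fold difference from NT was not called (adjusted p = 0.0745). RNF2, the paralogue of RING1, had group means of 43.3 to 59 CPM and was not called in any of the 3 comparisons (adjusted p = 0.835, 0.0571 and 0.836).

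Of 14 variant PRC1 genes, 5 were higher and 1 lower with decitabine than in NT (24.9% and 23.7% of all tested genes). Relative to Doxo, 6 were higher and 5 lower with decitabine (29.1% and 30.4%). Relative to Doxo+Cyta, 7 were higher and 4 lower (29.8% and 30.5%). L3MBTL2, which belongs to the variant complex with PCGF6 and E2F6, had 23.4 to 31.2 CPM with decitabine and 8.56 to 14.6 CPM elsewhere. It was 2.01-fold higher than in NT (edgeR adjusted p = 0.00116), 2.53-fold higher than in Doxo and 2.49-fold higher than in Doxo+Cyta. The PR-DUB complex removes ubiquitin from histone H2A. Of its 7 tested genes, 0 were higher and 1 lower with decitabine than in NT (24.9% and 23.7% of all tested genes). KDM6B, a demethylase of lysine 27 of histone H3, was 1.49-fold lower than in NT (adjusted p = 0.00336). It was 2.32-fold lower than in Doxo and 1.69-fold lower than in Doxo+Cyta. KDM6B was also 1.55-fold higher in Doxo than in NT (adjusted p = 0.0171). The 1.13-fold difference of Doxo+Cyta from NT was not called (adjusted p = 0.535). KDM6A, the other demethylase, was not called (adjusted p = 0.703, 0.163 and 0.838).

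The heterochromatin proteins CBX1, CBX3 and CBX5 share the chromobox with the Polycomb CBX proteins but belong to the HP1 family. CBX3 was 1.36-fold higher with decitabine than in NT, 1.37-fold higher than in Doxo and 1.47-fold higher than in Doxo+Cyta (edgeR adjusted p = 0.00197, 0.000392 and 6.35e-05). CBX5 was 1.59-fold, 1.43-fold and 1.34-fold lower (adjusted p = 0.00151, 0.00318 and 0.0106), and CBX1 was not called (adjusted p = 0.356, 0.445 and 0.898). CDKN2A and CDKN2B, classic targets of CBX7 and BMI1, had 0 counts in all 12 libraries, which allows a level of up to 0.157 to 0.235 CPM, so no change there could be measured.

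CBX7 had 14 tested neighbours within 250 kb, of which 8 were higher and 1 lower in Doxo than in Doxo+Cyta+DAC (30.4% and 29.1% of all tested genes). In Doxo+Cyta 8 were higher and 2 lower (30.5% and 29.8%), and in Doxo+Cyta+DAC 1 was higher and 3 were lower than in NT (24.9% and 23.7%). On one side the nearest was APOBEC3H, a cytidine deaminase gene 26707 bases away, where Doxo exceeded Doxo+Cyta+DAC by 3.34 ± 0.60 SE and Doxo+Cyta exceeded it by 3.77 ± 0.57 SE on the log2 scale (edgeR adjusted p = 0.000294 and 6.38e-05), and Doxo+Cyta+DAC differed from NT by -3.23 ± 0.64 SE (adjusted p = 0.00105). On the other it was PDGFB, a growth factor gene 71147 bases away, at 1.85 ± 0.43 SE and 1.61 ± 0.44 SE (adjusted p = 0.00221 and 0.00608), while its difference of -0.53 ± 0.53 SE from NT was not called (adjusted p = 0.431).

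The genes most like a member across the 12 libraries were found by Pearson's r of log2 CPM among genes with a mean of at least 10 CPM. For EZH1 they were TMEM63B (r = 0.995), COPG1 (r = 0.994) and CALCOCO1 (r = 0.993), and for EZH2 NOL10 (r = 0.992), PRMT5 (r = 0.987) and DHX16 (r = 0.986). For CBX7 they were ARHGAP39 (r = 0.988), MIR210HG (r = 0.986) and LEPROT (r = 0.985). Among the members, EZH1 ran with CBX7 (r = 0.948) and against EZH2 (r = -0.949). These values describe 12 libraries that share their groups and their scaling, and for all 3 members the 4 decitabine libraries lie apart from the other 8.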

How the data were processed

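RNA of 12 samples of HEL cells was sequenced as paired reads. The deposited values are raw counts: the authors assigned fragments to genes with featureCounts 1.6.0 after alignment to GRCh38 with Bowtie2 2.2.8, without regard to strand and without fragments that overlapped several genes. Samples were grouped by their labels; the design text speaks of 3 untreated samples, and 2 are labelled so. Of 26485 genes, 4 with a missing count were left out. Counts were tested with edgeR 4.0.16 in R 4.3.3 (filterByExpr, TMM scaling, 1 quasi-likelihood fit of all 12 samples, 6 comparisons, two-sided, Benjamini-Hochberg over 14164 genes), after the fit had been tested on simulated data. CPM use the TMM factors. Ratios are log2 of (count + 0.5) per exon base, compared by two-sided exact permutation tests, adjusted over 12 tests. Gene positions and exon lengths are those the authors deposited with the counts, on GRCh38. The S-phase genes are from Seurat 5.3.0, and plots from Python 3.11.15 with matplotlib 3.10.9.

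Named were all 9 members, other Polycomb genes with an adjusted p under 0.05 and a fold change over 2 between Doxo+Cyta+DAC and Doxo or Doxo+Cyta, a fixed list of paralogues, demethylases and targets (CBX1, CBX3, CBX5, CBX6, RNF2, PCGF2, CDKN2A, CDKN2B, KDM6A and KDM6B), the 3 genes most like EZH1, EZH2 and CBX7, and the nearest neighbours of the CBX members. Results for 1 gene that met this rule are not reported here. Members, lists and tests were chosen with earlier results of these data known. Alternatives were RLE and upper-quartile scaling, other filters, a fit of only the groups compared, stricter thresholds, DESeq2 1.42.0, a pseudocount of 2, the groups apart for ratios, and each replicate left out. Leaving out both libraries that stood apart was added after seeing the data.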

Additional observations from a re-analysis of the deposited data

Results flagged for a closer look

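The EED level of Doxo+Cyta+DAC 30, at 55.8 CPM, lay far from the other 3 libraries of its group, with a gap to the nearest that made up 0.868 of the range of the group. Only Doxo+Cyta+DAC has enough libraries for this check, which chance passes in about 1 of 20 groups, and 13 sets of values were looked at.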

How the results depend on the processing

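Every call of EZH1 and CBX7 in the 3 comparisons with Doxo+Cyta+DAC kept its direction and its call under all 19 alternative fits. So did those of EZH2 and SUZ12 relative to Doxo and Doxo+Cyta, CBX2 relative to Doxo and CBX8 relative to Doxo+Cyta. The stricter thresholds are not among the 19. SUZ12 relative to NT kept its call in 15 of 19 (largest adjusted p = 0.211, edgeR). No paired analysis was possible because the groups share no replicate numbers. At an adjusted p under 0.01 and a fold change over 2, only 2 members, EZH1 and CBX7, were called in each of the 3 comparisons with Doxo+Cyta+DAC. With 1 replicate left out, 0 to 1 members were called in Doxo vs NT, the 1 without Doxo 4, and 2 to 5 in Doxo+Cyta+DAC vs NT, the 2 without NT 2. The fits without an NT replicate assume that the lone NT library varies like the other groups. Without both libraries that stood apart, 2 were called in Doxo vs NT and 1 in Doxo+Cyta vs NT, and the log2 differences of the ratios between Doxo+Cyta+DAC and the chemotherapy groups were -2.11 (EZH1 to EZH2), -3.15 (CBX7 to CBX2), -1.61 (CBX7 to CBX8) and 1.54 (CBX2 to CBX8), where 4 against 4 libraries gave an adjusted exact p of 0.0857. With the groups apart they were -1.95 and -2.01, -2.96 and -2.90, -1.64 and -1.51, and 1.32 and 1.38 against Doxo and Doxo+Cyta (adjusted exact p of 0.0714, the smallest unadjusted p being 0.0286). Fewer libraries limit these p-values.

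Directions turned only for differences that were not called with all libraries, BMI1 among them with a log2 fold change of 0.39 in Doxo+Cyta+DAC vs NT. For SUZ12 in Doxo vs NT the log2 fold change was -0.031 with upper-quartile scaling, -0.035 with no filter and -0.085 to 0.12 with 1 replicate left out. In the same comparison BMI1 ranged from -0.36 to 0.62. In Doxo+Cyta vs NT, RING1 gave -0.012 with RLE scaling, -0.043 with no filter, -0.0025 with at least 10 counts in every sample, -0.016 with only the groups compared, -0.13 without both libraries and -0.013 with DESeq2, and CBX7 gave -0.010 with no filter. With 1 replicate left out, RING1 ranged from -0.13 to 0.049, CBX7 from -0.19 to 0.19, EED from -0.15 to 0.024 and BMI1 from -0.64 to 0.34. BMI1 in Doxo+Cyta+DAC vs NT ranged from -0.031 to 0.94, and RING1 in Doxo vs Doxo+Cyta from -0.097 to 0.084, with 0.049 without both libraries. The ratio of CBX7 to CBX8 in chemotherapy vs NT ranged from -0.27 to 0.15 and was 0.0025 for Doxo alone. The cause was not tested.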
